A study of Mus musculus with 16 samples.

Results

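The cells described here are those that the authors' deposited cell annotation names stem cells with no further word. They number 229 of the 20376 annotated cells: 218 in the KO tumor library, 8 in the WT tumor library, 3 in the KO sorted library and 0 in the WT sorted library. They were set against the 2493 cells named fibroblasts and the 1283 cells named neuroblastoma cells of the KO tumor library. Marker genes did not settle the name. Mecom, Sox2, Pi16 and Dpp4 had 0 UMIs in the KO tumor cells, and Cd34, Ly6a and Pdgfra were lower than in the cells compared. Hematopoietic stem and progenitor genes, Cd34 and Ly6a among them, lay on both sides at 1.5-fold. Of 15 measured against fibroblasts 5 were higher and 8 lower, beside 22.0% and 25.9% of all genes. Of 13 measured against neuroblastoma cells 5 were higher and 6 lower, beside 13.9% and 19.7% of all genes. The cells are therefore called stem-named cells throughout, and no other cell type name is given to them.

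The tumors came from the mouse neuroblastoma line NB9464D, injected under the skin of male C57BL/6 mice aged 8 weeks and taken on day 28. KO mice carried the CD200R-/- genotype by 1 label and CD200-/- by another, and WT mice were wild type; both received the same line, and no transgene or Cre driver is named. Tumor libraries held all cells of the collagenase-digested tumor (1 mg/mL), and sorted libraries held cells sorted for CD45, the surface protein of leukocytes. The labels list 16 samples, 4 per group, but the deposited cells carry only the 4 group names, so each group is 1 library and no value below has a replicate check. No p-value or SD is given, and 95% intervals (exact Poisson for levels, exact binomial for shares, conditional binomial for ratios) cover counting error only.

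Stem cells are defined by self-renewal and by giving rise to differentiated cells. Blood stem cells are recognised by Kit, Cd34 and Ly6a (Sca-1) together with factors such as Mecom, pluripotent cells by Pou5f1, Sox2 and Nanog, and stromal progenitors by Pdgfra, Pi16 and Dpp4. Neuroblastoma arises from the sympathetic lineage of the neural crest, in which Hand2 and Mycn act, and neuroblastoma lines can also hold matrix-producing cells that resemble mesenchyme.

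The stem-named cells were 3.70% of KO tumor cells (218 of 5897; 3.23 to 4.21%) and 0.161% of WT tumor cells (8 of 4955; 0.0697 to 0.318%). The sorted libraries held 3 of 4305 cells in KO, and 0 of 5219 in WT, for which 3 counts would be a share of 0.0575% and the exact binomial upper limit is 0.0707%. Whether the difference between the KO and WT libraries exceeds the spread between tumors cannot be told from 1 library each. The KO tumor library was 103877007 UMIs (unique molecular identifiers, a count of captured RNA molecules) and the WT tumor library 103277632. Of all cell barcodes, 113 occurred in more than 1 library. All 3 KO sorted stem-named cells had such a barcode: they held 70208, 76210 and 126881 UMIs, and the WT sorted and WT tumor cells with the same barcodes held 757 to 1557 UMIs, named fibroblasts, a neuroblastoma cell or cancer stem cells. In the KO tumor library 2 of the 218 shared a barcode with a WT sorted cell, and in the WT tumor library 0 of 8 did. The KO sorted cells are used below only as a side value.

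These were deep cells. The median stem-named cell of the KO tumor held 35120 UMIs (lowest 2700, highest 83474) and 5651.5 genes, against 18136 UMIs and 4298 genes in fibroblasts and 31582 UMIs and 5656 genes in neuroblastoma cells. The 8 WT tumor cells held a median of 43310 UMIs (19521 to 57236). Depth thus set the stem-named cells apart from fibroblasts but hardly from neuroblastoma cells.

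The share of UMIs from the mitochondrial genome, a common sign of damaged cells when high, was a median of 8.82% in KO stem-named cells (1.95 to 35.6%), 9.23% in fibroblasts and 7.93% in neuroblastoma cells. Above 15% mitochondrial UMIs lay 11 of the 218 stem-named cells (5.05%), 9.11% of fibroblasts and 3.35% of neuroblastoma cells. In the KO tumor the median of the stem-named cells thus lay between those of the other classes. In the WT tumor it did not: the medians were 6.91% in stem-named cells, 6.24% in fibroblasts and 5.99% in neuroblastoma cells. Ribosomal protein RNA was 29.1% of UMIs in the median stem-named cell, 27.1% in fibroblasts and 26.7% in neuroblastoma cells of the KO tumor, whereas in the WT tumor it was 27.4% in stem-named cells, 33.7% in fibroblasts and 29.5% in neuroblastoma cells. A rule marked cells with at least 3 markers in each of 2 lineages as possible doublets. Its lineages were T, B and NK cells, monocytes and macrophages, neutrophils, endothelium, erythroid cells, and fibroblast and matrix genes. It marked 14.7% of stem-named cells, 13.3% of fibroblasts and 22.5% of neuroblastoma cells of the KO tumor, and 3 of the 8 WT stem-named cells (37.5%). These shares are not like measures of doublets. Depth differed between the classes, and the fibroblast and matrix genes summed to 1101 CPM in KO stem-named cells, 7363 in fibroblasts and 3575 in neuroblastoma cells.

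**Figure D1:**
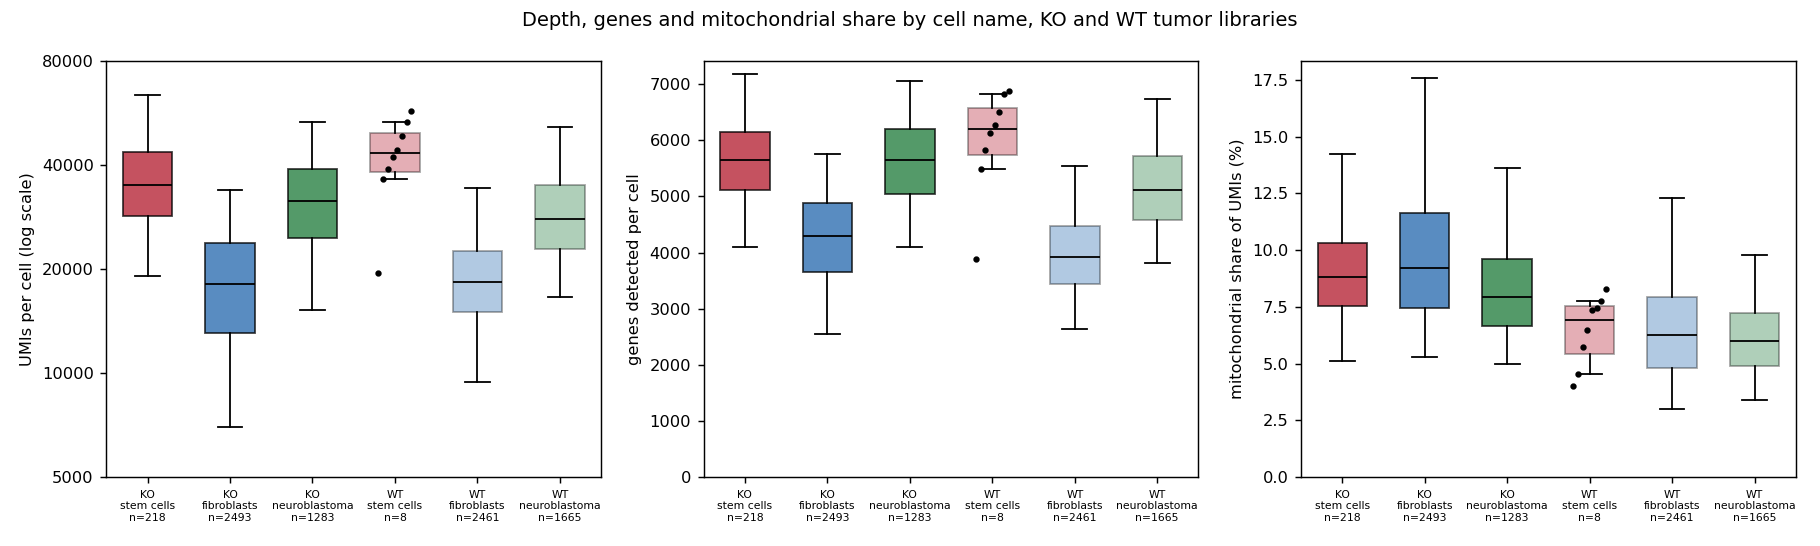
UMIs per cell (log axis), genes per cell and percent of mitochondrial UMIs for stem-named cells, fibroblasts and neuroblastoma cells of the KO and WT tumor libraries. Each box spans the quartiles of the cells of a class; the KO stem-named cells have a median of 35120 UMIs, against 18136 in KO fibroblasts and 31582 in KO neuroblastoma cells, and mitochondrial medians of 8.82%, 9.23% and 7.93%.

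The annotation holds other stem cell names, and these cells were unlike the 218. The 461 KO tumor cells named cancer stem cells held a median of 2171 UMIs with 0.988% mitochondrial, and the 192 named hematopoietic stem cells held 3593.5 UMIs with 39.1% mitochondrial. Igf1, which encodes insulin-like growth factor 1, had 7.03 CPM (UMIs per 1000000 UMIs of the class) in the stem-named cells, 201 CPM in the cancer stem cells and 232 CPM in the hematopoietic stem cells.

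When the 3 classes of the KO tumor were clustered on their 2000 most variable genes, with no use of the names, 207 of the 218 stem-named cells (94.95%) fell into 1 of 12 clusters. That cluster held 226 cells, of which 91.6% were stem-named, 12 were named fibroblasts and 7 neuroblastoma cells. The stem-named cells outside it numbered 11 and lay in 3 clusters of the other names; they had 32.8 CPM of Igf1 and 289 CPM of Tmsb4x, against 6.02 and 40.9 CPM in the 207. By correlation with class profiles over 3000 genes, 213 of 218 were most like the other stem-named cells. The second most like class was neuroblastoma for 113 cells, cancer stem cells for 72 and fibroblasts for 26. Clustered together with the WT tumor, 206 KO and 4 of the 8 WT stem-named cells shared a cluster. How the authors gave the names is not stated in the sources used here, and the names may rest on the same genes. The agreement of clusters and profiles with the names is therefore not independent support for them. Since a cluster is made from the genes themselves, the gene levels below describe these cells and test nothing.

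Ratios between classes are given as log2 of the summed CPM of the stem-named cells over that of the class compared, relative to the median gene, which lay at -0.25 against fibroblasts and -0.17 against neuroblastoma cells on the scale of total UMIs. Of 12490 genes with at least 50 UMIs against fibroblasts, 1153 (9.23%) were higher in stem-named cells by 2-fold or more, and 1931 (15.5%) were lower by as much. Against neuroblastoma cells 467 of 12020 (3.89%) were higher and 1069 (8.89%) lower. On the scale of total UMIs, in place of the median gene, the share of higher genes among those 2-fold apart was 22.4% against fibroblasts and 19.2% against neuroblastoma cells, compared with 37.4% and 30.4% relative to the median gene. Both comparisons share the stem-named cells. Of 11942 genes measured in both, 353 were higher and 946 lower against both classes, and 20 lay 2-fold apart in opposite directions.

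The 15 lowest genes by the smaller of both log2 ratios, among genes with at least 50 CPM in 1 class, included Igf1, matrix genes and Tmsb4x. Igf1 (chromosome 10, 87858265 to 87937042, plus strand, GRCm38) had 7.03 CPM (5.32 to 9.11) in stem-named cells, 534 CPM (528 to 541) in fibroblasts and 257 CPM (252 to 261) in neuroblastoma cells, log2 ratios of -6.00 (-6.40 to -5.63) and -5.02 (-5.43 to -4.65). Decorin (Dcn; chromosome 10, 97479609 to 97518143, plus strand), a collagen-binding proteoglycan, had 5.79 CPM in stem-named cells, 367 CPM in fibroblasts and 195 CPM in neuroblastoma cells. B cells of the same library, which should make neither, had 16.8 CPM of Igf1 and 4.81 CPM of Dcn, but these rest on a total of 415923 UMIs in shallow cells, so what part of the few UMIs in the stem-named cells is free RNA was not tested. Igf1 had at most 6 UMIs in any of the 218 cells, whereas the median was 6 UMIs in a fibroblast and 4 in a neuroblastoma cell.

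Cd34, a surface sialomucin of blood progenitors, vessels and some fibroblasts, had 7.64 CPM in stem-named cells, 415 in fibroblasts and 208 in neuroblastoma cells. Lumican (Lum), another matrix proteoglycan, had 2.47, 136 and 71.2 CPM in the same order, and Tfpi, an inhibitor of blood coagulation, 1.60, 64.5 and 60.6 CPM. Col8a1, a collagen chain, had 6.78 CPM in stem-named cells, 176 in fibroblasts and 148 in neuroblastoma cells. These genes were at least 16-fold below both classes. Tmsb4x (X chromosome, bases 167207093 to 167209315 of the minus strand), which encodes the actin-binding peptide thymosin beta 4, had 50.2 CPM (45.4 to 55.3) in stem-named cells, 1483 CPM in fibroblasts and 900 CPM in neuroblastoma cells, log2 ratios of -4.64 and -4.00. The median stem-named cell held 1 UMI of Tmsb4x, against 19 UMIs in fibroblasts and 20 in neuroblastoma cells, and the highest stem-named cell held 62.

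The other genes among the 15 lowest were Sema3a and Sema5a, which encode guidance cues, Medag, Igfbp6, a binding protein of insulin-like growth factors, Postn, a matrix protein, Masp1, a complement protease, Gstm2, and Hbb-bs, a hemoglobin chain that near-identical copies share. Hbb-bs had 6.66 CPM in stem-named cells, 130 CPM in fibroblasts and 71.5 CPM in neuroblastoma cells. Without cells marked as possible doublets, by a rule that uses Hbb-bs itself, its log2 ratios were 0.06 and 0.24. In the WT tumor library all 15 were also lower by CPM in the 8 stem-named cells than in WT fibroblasts and WT neuroblastoma cells, 4 of them with 0 UMIs. Some rest on few UMIs. Igfbp6 had 20.6 CPM (7 UMIs) in WT stem-named cells and 22.8 CPM in WT neuroblastoma cells, a log2 interval of -1.64 to 0.73. Medag had 1 UMI and an interval of -7.10 to 0.69 against WT neuroblastoma cells, so both span 0. Igf1 there had 29.4 CPM in stem-named cells, 1266 CPM in fibroblasts and 1097 CPM in neuroblastoma cells, and Tmsb4x had 191, 625 and 360 CPM in that order.

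The 15 highest genes by the same rule included enzymes, a growth factor binding protein and metallothioneins. Carbonic anhydrase 14 (Car14; minus strand of chromosome 3, 95897768 to 95904691) had 68.3 CPM (62.7 to 74.2) in stem-named cells, 12.9 CPM in fibroblasts and 14.2 CPM in neuroblastoma cells, log2 ratios of 2.66 (2.49 to 2.83) and 2.44 (2.27 to 2.61). Car14 had a UMI in 89.5% of stem-named cells, 15.9% of fibroblasts and 24.4% of neuroblastoma cells. Gchfr, which encodes the feedback regulator of GTP cyclohydrolase, had 82.0 CPM in stem-named cells, 13.98 in fibroblasts and 20.2 in neuroblastoma cells. Selenbp1, a selenium-binding methanethiol oxidase, had 75.6, 15.1 and 18.7 CPM in that order. These genes were detected in most stem-named cells, at low counts: the median cell held 2 UMIs of Car14 and 3 of Gchfr.

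Igfbp5 (minus strand of chromosome 1, 72857932 to 72874884), a secreted binding protein of insulin-like growth factors, had 667 CPM (650 to 685) in stem-named cells, 152 CPM in fibroblasts and 125 CPM in neuroblastoma cells, log2 ratios of 2.38 and 2.58. It varied among the cells: per 10000 UMIs the stem-named cells ran from 1.37 at the 10th percentile through a median of 5.30 to 15.6 at the 90th. The median was 0 in the other classes, whose highest cells reached 50.6 and 29.4. High Igfbp5 was not particular to the stem-named cells. A cluster of 116 fibroblasts and 5 neuroblastoma cells, with 0 stem-named cells, had 663 CPM, against 652 CPM in the cluster that held 207 stem-named cells. Igfbp5 was not higher in the WT tumor, where it had 244 CPM in stem-named cells, 276 CPM in fibroblasts and 263 CPM in neuroblastoma cells.

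The metallothionein genes Mt1 and Mt2 lie next to each other on chromosome 8 and encode small metal-binding proteins that zinc, cadmium and glucocorticoids induce. Their promoters are shown because the neighbours were high together and because the metal-responsive factor MTF-1 is known to act through short repeats there. Both are from RefSeq, build GRCm38.p6, plus strand, 250 bases before the start, with matches to TGCACNC or TGCGCNC on either strand in capitals:
Mt1 (chr8:94178839-94179088): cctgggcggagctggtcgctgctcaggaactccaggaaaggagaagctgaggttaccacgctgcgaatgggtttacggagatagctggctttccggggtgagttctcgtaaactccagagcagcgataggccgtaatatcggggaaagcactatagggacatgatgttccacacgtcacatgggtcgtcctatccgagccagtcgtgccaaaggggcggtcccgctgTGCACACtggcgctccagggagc
Mt2 (chr8:94172368-94172617): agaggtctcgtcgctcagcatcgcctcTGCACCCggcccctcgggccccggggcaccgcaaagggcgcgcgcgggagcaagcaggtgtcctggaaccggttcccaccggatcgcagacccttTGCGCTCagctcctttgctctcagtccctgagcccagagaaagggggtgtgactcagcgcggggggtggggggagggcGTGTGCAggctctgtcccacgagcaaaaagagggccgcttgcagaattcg
The Mt1 window holds 1 match and the Mt2 window 3. Of 32851 mouse promoter windows of the same length 21.4% hold at least 1 match and 1.26% at least 3, and of the 15 highest genes 12 had a window, 6 of them with a match. A match describes letters only. The windows end at the RefSeq start, so matches past it are not counted, and the start in use in these cells was not tested. The counts are thus not those of all such repeats at Mt1 and Mt2.

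Mt1 had 658 CPM (641 to 676) in stem-named cells, 209 CPM in fibroblasts and 258 CPM in neuroblastoma cells, log2 ratios of 1.91 and 1.52. Mt2 had 320 CPM (308 to 333), 86.4 and 114 CPM in the same order, log2 ratios of 2.14 and 1.66. Mt1 was spread over nearly all stem-named cells, with a median of 21 UMIs, and its median was 1 UMI in fibroblasts and 4 in neuroblastoma cells. In the WT tumor Mt1 had 1358 CPM in the 8 stem-named cells, 507 CPM in fibroblasts and 495 CPM in neuroblastoma cells, and Mt2 had 423, 192 and 193 CPM. Both genes were thus higher in stem-named cells than in the whole classes compared in both tumor libraries. Within the KO tumor, the cluster of 116 fibroblasts and 5 neuroblastoma cells with high Igfbp5 also had 583 CPM of Mt1. The cluster that held 207 stem-named cells had 693 CPM of Mt1.

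Amino acid enzymes were also among the 15: Gcat, which acts in threonine breakdown to glycine, had 128 CPM in stem-named cells, 33.3 in fibroblasts and 53.9 in neuroblastoma cells, and Bcat1, the cytosolic branched-chain aminotransferase, had 66.7, 17.4 and 24.9 CPM. Lef1, a transcription factor of the Wnt pathway, had 129 CPM in stem-named cells, 47.7 in fibroblasts and 58.4 in neuroblastoma cells. The small GTPase Rac3 had 74.8, 22.6 and 21.9 CPM in that order, and mt-Nd6, a mitochondrial subunit of complex I, 203, 67.7 and 76.2 CPM. Ddah1, which breaks down methylarginines, had 66.5 CPM in stem-named cells, 10.5 in fibroblasts and 15.2 in neuroblastoma cells. The others were Pop1, Mdn1 and Ndufaf6. Of these 15, 11 were higher by CPM in WT stem-named cells than in both WT classes, and Igfbp5, Lef1, Ddah1 and Rac3 were not. CPM is not relative to the median gene, which lay at 0.31 against WT fibroblasts and 0.17 against WT neuroblastoma cells. Relative to it, the intervals of Bcat1 (-0.52 to 1.11 and -0.81 to 0.82) and Pop1 (-0.03 to 1.54 and -0.29 to 1.28) span 0 against both WT classes. Ddah1 in the WT tumor had 70.5 CPM in stem-named cells, 89.8 in fibroblasts and 101 in neuroblastoma cells. The level of Ddah1 in the stem-named cells was thus close in both libraries while that of the cells compared was not.

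**Figure D2:**
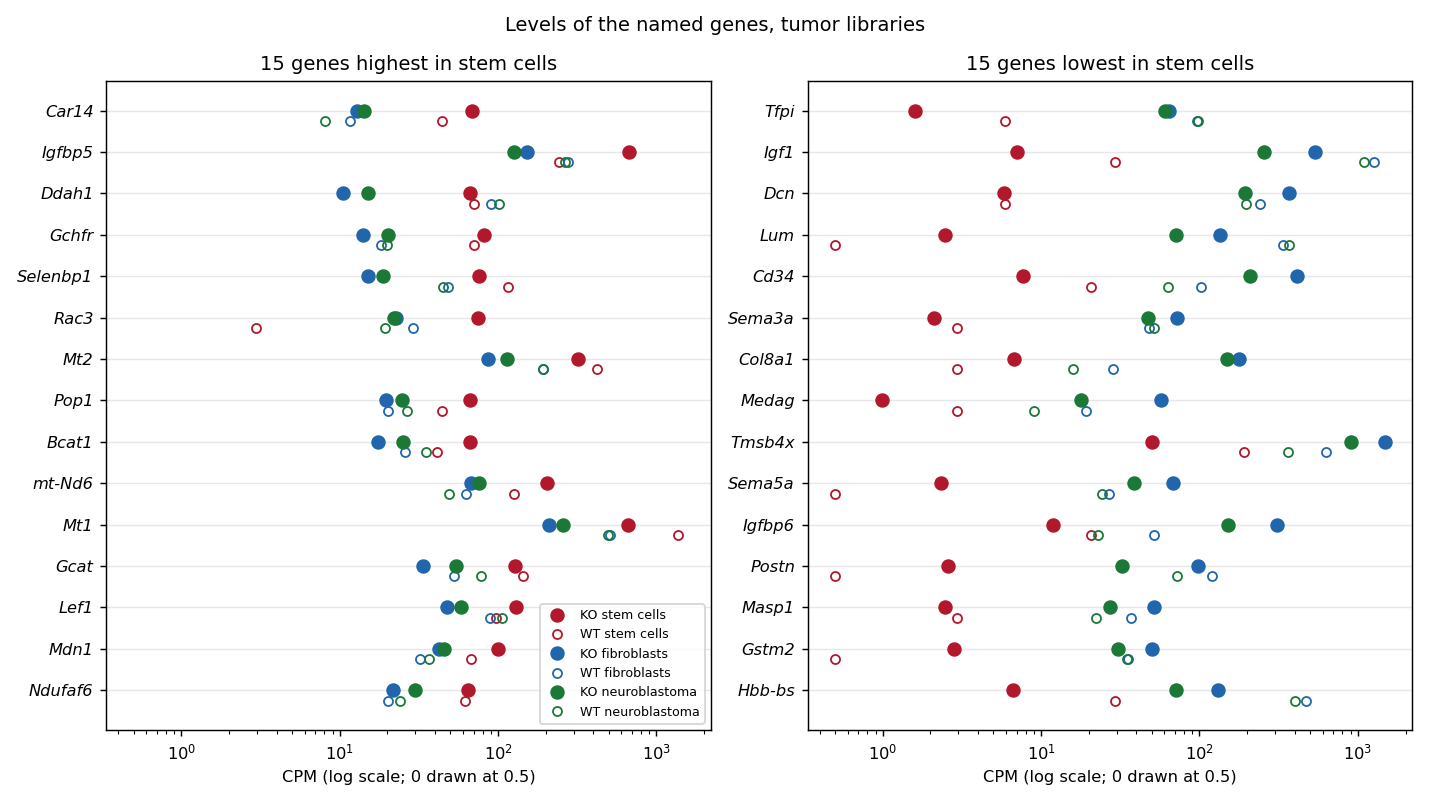
CPM (log axis, 0 drawn at 0.5) of the 15 highest and the 15 lowest genes in stem-named cells, fibroblasts and neuroblastoma cells, filled points for the KO and open points for the WT tumor library. Igf1 lies at 7.03 CPM in KO stem-named cells, against 534 and 257 CPM in KO fibroblasts and KO neuroblastoma cells, and Car14 at 68.3 CPM, against 12.9 and 14.2 CPM.

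Of 11942 genes measured in both comparisons, a set of 15 chosen after the values were seen was at least 16-fold higher against both classes. Their levels lay under the 50 CPM that the rule for single genes asked for. The set comprised Large2, Ntsr2, Urah, Kcnt1, Fam131c, Wfdc2, Pcbd1, Smagp, Zfp750, Mfng, Atp6v1c2, Rab17, Smim41, Chchd10 and Slc6a15. Each had at least 50 UMIs in the KO stem-named cells, so the set was picked for being high there. Its KO levels and shares below follow from that choice and test nothing. Kcnt1, a sodium-activated potassium channel, had 28.7 CPM (25.2 to 32.7) in stem-named cells, 0.402 CPM in fibroblasts and 0.743 CPM in neuroblastoma cells. Large2, a glycosyltransferase that acts on dystroglycan, had 22.3, 0.0847 and 0.407 CPM, and Mfng, a Fringe enzyme that modifies Notch, 22.4 CPM in stem-named cells. Summed over the 15 the level was 225 CPM in stem-named cells, 6.86 in fibroblasts and 8.27 in neuroblastoma cells. A stem-named cell held a median of 8 of these UMIs (0 to 28). At least 1 was held by 99.5% of stem-named cells, 9.11% of fibroblasts and 17.5% of neuroblastoma cells, with no thinning to equal depth. The WT tumor sum was 118 CPM in stem-named cells, 45.6 CPM in fibroblasts and 49.9 CPM in neuroblastoma cells, and 10 of the 15 genes had a higher CPM in the stem-named cells than in both. Those 10 rest on 1 to 6 UMIs each in the 8 cells, and the intervals of some ratios, Smagp and Slc6a15 among them, span 0.

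Lists of stem cell genes were mixed. For list members a gene counted as higher or lower at 1.5-fold with at least 20 UMIs, a share that over all genes was 22.0% higher and 25.9% lower against fibroblasts and 13.9% higher and 19.7% lower against neuroblastoma cells. Of 22 hematopoietic stem and progenitor genes 8 had 0 UMIs in the 218 cells (among them Flt3, Mecom, Gfi1, Spi1 and Tek), where 3 counts would be 0.370 CPM. Of the 15 measured against fibroblasts 5 were higher and 8 lower, and of the 13 measured against neuroblastoma cells 5 were higher and 6 lower. Ly6a, or Sca-1, had 0.123 CPM in stem-named cells, 25.04 CPM in fibroblasts and 5.87 CPM in neuroblastoma cells, a log2 ratio of -7.42 against fibroblasts. Slamf1 had 4.19, 1.40 and 1.13 CPM and Myb, a factor of blood progenitors, 3.08, 0.191 and 1.73 CPM. Hlf, a transcription factor of blood stem cells and of several other tissues, had 60.3 CPM in stem-named cells, 37.8 CPM in fibroblasts and 39.3 CPM in neuroblastoma cells, log2 ratios of 0.92 and 0.78. Hlf was thus the member both higher against each class and above a few CPM, and it was present in the cells compared as well.

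Of the pluripotency genes Sox2, Dppa3, Utf1 and Tdgf1 had 0 UMIs and Nanog had 0.493 CPM, beside 0.530 CPM in fibroblasts and 0.407 CPM in neuroblastoma cells. Klf4, a factor also made by many differentiated cells, had 83.5 CPM in stem-named cells, 210 in fibroblasts and 113 in neuroblastoma cells. Of 15 mesenchymal progenitor genes measured against fibroblasts 2 were higher and 11 lower, and against neuroblastoma cells 1 of 13 was higher and 7 were lower. Pdgfra, a receptor of platelet-derived growth factor, had 6.90 CPM in stem-named cells, 57.4 in fibroblasts and 27.1 in neuroblastoma cells, and Pi16, Dpp4, Cxcl12, Ly6c1 and Alcam had 0 UMIs. Of 20 measured genes tied to stem-like neuroblastoma cells 5 were higher and 6 lower against fibroblasts and 3 higher and 4 lower against neuroblastoma cells. These counts were near the shares over all genes (22.0% and 25.9% against fibroblasts, 13.9% and 19.7% against neuroblastoma cells), so the list as a whole did not stand out. Cd44, the hyaluronan receptor and 1 of the lower members, had 9.99 CPM in stem-named cells, 60.5 in fibroblasts and 26.8 in neuroblastoma cells.

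Sympathetic and neural crest genes were mixed. Of 17 measured sympathetic and neuroblastoma genes 5 were higher and 6 lower against fibroblasts, and 4 higher and 5 lower against neuroblastoma cells. Uchl1, a neuronal ubiquitin hydrolase, had 203 CPM in stem-named cells, 96.8 in fibroblasts and 94.8 in neuroblastoma cells, log2 ratios of 1.31 and 1.26. Stmn2, a tubulin-binding protein of neurons, had 0.123, 2.46 and 1.73 CPM in that order. Hand2, a factor of the sympathetic lineage named here outside the rule because it is defining, had 138 CPM in stem-named cells, 333 in fibroblasts and 245 in neuroblastoma cells. Of 12 measured neural crest genes 3 were higher and 5 lower against each class; Sox5 had 24.4 CPM in stem-named cells, 14.6 in fibroblasts and 15.98 in neuroblastoma cells.

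Matrix genes were low as a group. Of 44 measured fibroblast and matrix genes 39 were lower and 1, Loxl2, higher against fibroblasts, with a median log2 ratio of -2.82, and of 40 measured against neuroblastoma cells 32 were lower and Loxl2 again was higher, with a median of -1.79. Over all tested genes the median is 0 by construction. Their summed level was 1101 CPM in stem-named cells, 7363 CPM in fibroblasts and 3575 CPM in neuroblastoma cells. Fap, a surface protease of activated fibroblasts, had 0.740 CPM in stem-named cells, 21.0 in fibroblasts and 11.2 in neuroblastoma cells, and Postn had 2.59, 98.0 and 32.3 CPM. Loxl2, a collagen crosslinking enzyme, had 5.18 CPM in stem-named cells, 1.99 in fibroblasts and 2.35 in neuroblastoma cells. Of 19 measured targets of TGF-beta and YAP signalling 12 were lower and 1 higher against fibroblasts, and 7 lower and 4 higher against neuroblastoma cells; Tgfb2, a TGF-beta ligand, had 18.5, 154 and 93.5 CPM.

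Of 15 endothelial markers 9 had 0 UMIs in the 218 cells, among them Cdh5, Kdr and Vwf; of the 8 measured 5 were lower and 1 higher against fibroblasts and 4 lower and 1 higher against neuroblastoma cells. Their sum was 60.0 CPM in stem-named cells, 112 in fibroblasts and 85.7 in neuroblastoma cells, most of it from Ramp2, a receptor accessory protein, with 38.2, 51.2 and 40.4 CPM. Of 10 pericyte genes measured against fibroblasts 7 were lower and 0 higher, and of 9 measured against neuroblastoma cells 7 were lower and 0 higher, with a sum of 31.6 CPM in stem-named cells, 87.3 in fibroblasts and 70.2 in neuroblastoma cells. The WT tumor went the other way, with a pericyte sum of 241 CPM in the 8 stem-named cells, 67.2 in fibroblasts and 50.1 in neuroblastoma cells. Most of that was Des, the muscle intermediate filament desmin, at 203 CPM in WT stem-named cells, where 6 of the 8 cells held a UMI of it, 12.5 CPM in WT fibroblasts and 12.7 CPM in WT neuroblastoma cells, against 1.85 CPM in KO stem-named cells. The 12 leukocyte genes summed to 27.0 CPM in stem-named cells, 67.0 in fibroblasts and 49.1 in neuroblastoma cells, and 9 of 12 were lower and 0 higher against fibroblasts and 10 lower and 1 higher against neuroblastoma cells. B cell markers were few and their direction was not stable. Of 7 measured, 3 were higher and 1 lower against fibroblasts, and of 5 measured 3 were higher and 1 lower against neuroblastoma cells. Their sums were 14.7 CPM in stem-named cells, 18.2 in fibroblasts and 9.25 in neuroblastoma cells, and the median stem-named cell had 0. Against neuroblastoma cells the list median of 1.07 became -2.23 without possible doublets, a rule that uses these genes. With cells thinned to 10000 UMIs it was -0.069. Igkc, an antibody light chain that plasma and B cells make in large amounts, had 4.81 CPM in stem-named cells, 2.65 in fibroblasts and 1.61 in neuroblastoma cells. Ptprc, which encodes CD45, had 1.36 CPM in stem-named cells, 3.43 in fibroblasts and 2.80 in neuroblastoma cells. Of the epithelial markers Epcam, Krt18, Krt10 and Krt1 had 0 UMIs, and Krt5, a keratin of basal epithelium, had 4.81 CPM in stem-named cells, 0.0212 in fibroblasts and 0.192 in neuroblastoma cells. Cd200r1 had 0 UMIs and Cd200 1 UMI in the KO stem-named cells.

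Interferon genes were low and MHC class I genes uneven. Of 23 measured interferon response genes 19 were lower and 0 higher against fibroblasts (median log2 ratio -1.82), and 13 were lower and 1 higher against neuroblastoma cells (median -0.90). Ifit3 had 0.123 CPM in stem-named cells, 14.9 in fibroblasts and 3.33 in neuroblastoma cells, and the guanosine triphosphatase Iigp1 had 0.123, 15.8 and 8.87 CPM. Of 10 MHC class I genes 7 were lower and 2 higher against fibroblasts, and 5 lower and 2 higher against neuroblastoma cells. H2-K1 had 2.71 CPM in stem-named cells, 12.3 in fibroblasts and 10.4 in neuroblastoma cells, whereas H2-D1, the other classical class I chain of this strain, had 191, 112 and 71.5 CPM; the class I chains resemble each other in sequence, so reads may be split between them. H2-D1 was also higher in the WT tumor, at 132 CPM in stem-named cells, 42.2 in fibroblasts and 33.5 in neuroblastoma cells.

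Cell cycle genes set the stem-named cells apart from fibroblasts and less from neuroblastoma cells. Of 30 genes of the G2 and M phases all 30 were higher against fibroblasts (median log2 ratio 3.11), and 14 were lower and 0 higher against neuroblastoma cells (median -0.57). Of 28 S phase genes 26 were higher and 0 lower against fibroblasts (median 1.63), and 7 lower and 0 higher against neuroblastoma cells (median -0.34). Top2a, the topoisomerase of dividing cells, had 317 CPM (305 to 330) in stem-named cells, 15.9 CPM in fibroblasts and 535 CPM in neuroblastoma cells. The mitotic kinase Aurkb had 58.9, 2.31 and 93.0 CPM in that order, and the cohesin acetyltransferase Esco2 36.9, 1.84 and 62.1 CPM. With each cell thinned to 10000 UMIs, Top2a had a UMI in 65.4% of 214 stem-named cells (58.6 to 71.8%), 10.9% of fibroblasts and 91.5% of neuroblastoma cells. Before thinning the shares were 81.7%, 18.01% and 97.8%. The thinning left out 4 stem-named cells, 326 fibroblasts and 24 neuroblastoma cells. The WT cells had 364 CPM of Top2a in stem-named cells, 23.5 in fibroblasts and 536 in neuroblastoma cells.

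Other genes parted the 2 comparisons in the opposite way: Ccl2, a chemokine for monocytes, had 3.82 CPM in stem-named cells, 106 in fibroblasts and 23.1 in neuroblastoma cells, and Thbs1, a matrix glycoprotein, had 3.33, 64.3 and 15.8 CPM. Plat, Igfbp7 and Serping1 had the same order of classes. These genes were lower against fibroblasts than against neuroblastoma cells.

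Glycolysis and hypoxia genes were higher in the KO library. Of 27 measured, 16 were higher and 1 lower against each class, with median log2 ratios of 0.71 against fibroblasts and 0.62 against neuroblastoma cells. Ldha, lactate dehydrogenase A, had 1143 CPM in stem-named cells, 548 in fibroblasts and 732 in neuroblastoma cells, and the enolase gene Eno1 had 368, 151 and 186 CPM. Ndrg1, a hypoxia-induced gene, had 77.5 CPM in stem-named cells, 39.7 in fibroblasts and 28.0 in neuroblastoma cells. Pfkfb3, a regulator of glycolysis, was the 1 lower, with 8.75, 34.7 and 16.3 CPM. In the WT tumor the direction against fibroblasts was the other way, with a median of -0.37, and the median against neuroblastoma cells was 0.029, so the group was not high in both libraries.

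Of the 13 protein-coding mitochondrial genes 4 were higher and 0 lower against each class. Of 80 measured ribosomal protein genes 18 were higher and 0 lower against fibroblasts and 12 higher and 0 lower against neuroblastoma cells. Over all genes 22.0% were higher and 25.9% lower against fibroblasts, and 13.9% higher and 19.7% lower against neuroblastoma cells. The ribosomal shares of higher genes were thus close to those over all genes, and the shares of lower genes were not. In the WT tumor the ribosomal sum was lower in the stem-named cells, at 271530 CPM, than in fibroblasts (331090 CPM) and neuroblastoma cells (293540 CPM). The genes with the most UMIs in stem-named cells were of these kinds, among them mt-Atp6, mt-Co2, mt-Co3, Rps2 and Rpl8. The nuclear RNA Malat1, which rises in share when cytoplasm is lost, had 5745 CPM in stem-named cells, 16070 CPM in fibroblasts and 12055 CPM in neuroblastoma cells.

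**Figure D3:**
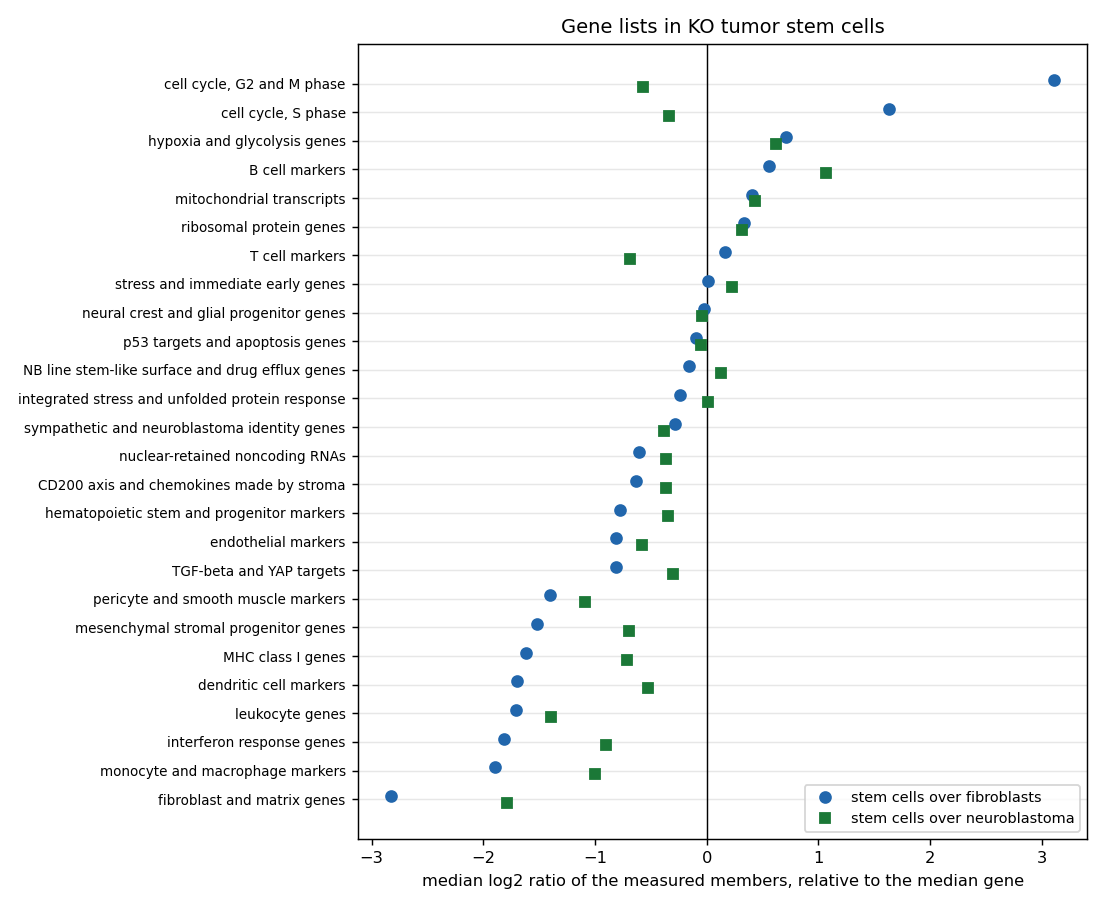
Median log2 ratio of the measured members of each gene list in KO tumor stem-named cells, over fibroblasts (circles) and over neuroblastoma cells (squares), relative to the median gene. The lists of the G2 and M phases (3.11) and S phase (1.63) lie highest against fibroblasts among the lists discussed here and below 0 against neuroblastoma cells, and fibroblast and matrix genes lie low against both (-2.82 and -1.79).

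Male-specific genes were counted because the hosts were male. Ddx3y, Uty, Kdm5d and Eif2s3y together had 0 UMIs in the 218 KO stem-named cells, where 3 counts would be 0.370 CPM. They had 1.12 CPM in fibroblasts and 0.503 CPM in neuroblastoma cells. Leukocyte classes of the same library had 82.8 to 330 CPM and endothelial cells 167 CPM. They had 0 UMIs in the 8 WT tumor and the 3 KO sorted stem-named cells too. In the KO tumor the stem-named cells, fibroblasts and neuroblastoma cells were thus all at 1.12 CPM or less, below the leukocyte and endothelial classes. The origin of the stem-named cells was not tested. Xist, the RNA of the inactive X chromosome, had 1 UMI in the 218 cells.

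Genes of the X chromosome were low together. Among genes with at least 30 CPM in the class compared, and without ribosomal protein genes, the median X-linked gene lay at a log2 ratio of -0.63 against fibroblasts (115 genes) and -0.71 against neuroblastoma cells (116 genes, quartiles -0.995 and -0.52, 97.4% of them below the median gene). Along the X chromosome the medians of windows of 20 Mb ran from -0.85 to -0.59 against neuroblastoma cells, so no single stretch carried the difference. The genes were assigned to chromosomes by symbol (GENCODE vM21), and copy number was not measured.

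Other chromosomes moved less. Chromosomes 15 (0.41 and 0.38) and 18 (0.42 and 0.35) had the highest medians against fibroblasts and neuroblastoma cells, and chromosome 9 (-0.38 and -0.38), 19 (-0.32 and -0.26) and 7 (-0.31 and -0.29) the lowest after X. Chromosome 4 (0.26 and 0.19) was uneven along its length against neuroblastoma cells, with window medians of 0.28 to 0.49 up to 80 Mb and -0.09 to 0.21 beyond it. Chromosome 5 was uneven too, with -0.72 to -0.20 up to 100 Mb and -0.12 to 0.10 beyond. Set side by side, fibroblasts over neuroblastoma cells of the KO tumor gave chromosome medians of -0.07 to 0.04, and M1 macrophages over B cells, which are host cells of the KO sorted library, gave -0.33 to 0.22.

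In the WT tumor the 8 stem-named cells had an X median of -0.66 against fibroblasts and -0.76 against neuroblastoma cells, with chromosome 18 at 0.54 and 0.50 and chromosome 4 at 0.43 and 0.43. Chromosome 10 lay at -0.53 and -0.51 and chromosome 14 at -0.41 and -0.39. Chromosomes 15 (-0.18 and -0.24) and 7 (0.06 and 0.09) lay on the other side of the median gene from their KO values. The low X and the high chromosome 18 were thus found in both tumor libraries. KO neuroblastoma cells over WT neuroblastoma cells themselves ranged from -0.47 on chromosome 14 to 0.42 on chromosome 18.

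**Figure D4:**
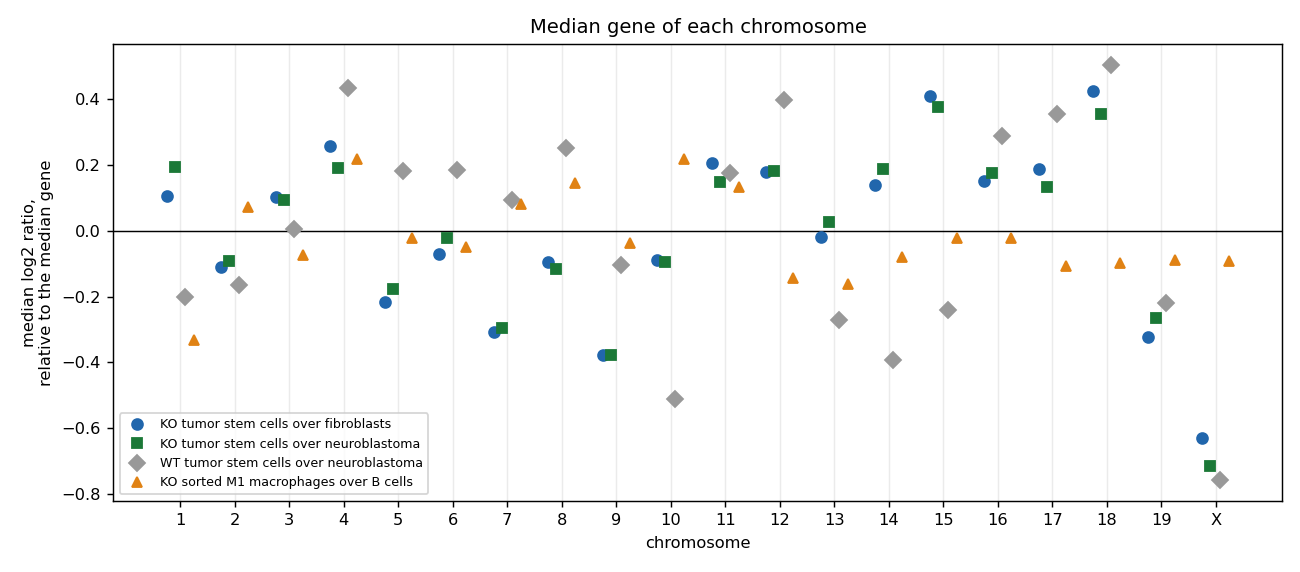
Median log2 ratio, relative to the median gene, of the genes on each chromosome. Shown are KO stem-named cells over fibroblasts and over neuroblastoma cells, and WT stem-named cells over neuroblastoma cells. M1 macrophages over B cells of the KO sorted library are drawn for scale. The X chromosome lies at -0.63 and -0.71 in the KO and at -0.76 in the WT tumor library.

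The X-linked share could be read cell by cell. Of nuclear UMIs outside ribosomal protein genes and Tmsb4x, X-linked genes gave a median of 1.28% in KO stem-named cells (5th to 95th percentile 1.07 to 1.59%), 2.16% in fibroblasts and 2.25% in neuroblastoma cells. The WT medians were 1.32% in stem-named cells, 1.88% in fibroblasts and 1.88% in neuroblastoma cells. At or under 1.59% lay 94.95% of KO stem-named cells, 23.6% of KO fibroblasts and 15.5% of KO neuroblastoma cells, so a low X share was the rule in stem-named cells and not particular to them. Of the WT tumor, 7 of 8 stem-named cells lay there, with 9.26% of fibroblasts and 3.90% of neuroblastoma cells.

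**Figure D5:**
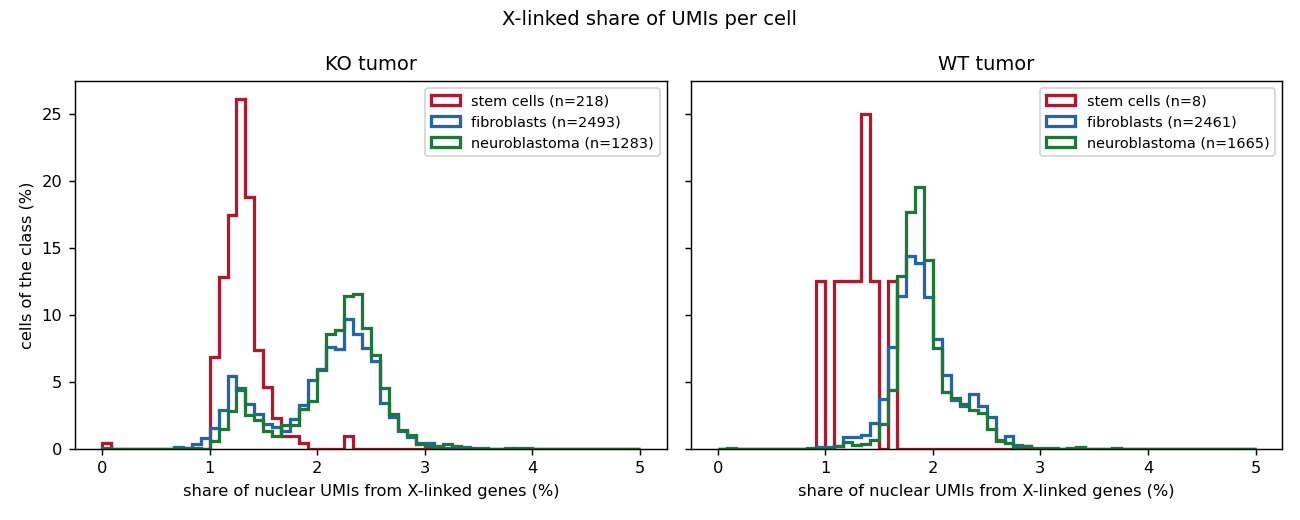
Histograms of the X-linked share of nuclear UMIs per cell (percent; ribosomal protein genes and Tmsb4x left out) for stem-named cells, fibroblasts and neuroblastoma cells, with the KO and the WT tumor library in separate panels and each class scaled to 100% of its cells. The stem-named cells form 1 peak with a median of 1.28% in KO, and fibroblasts and neuroblastoma cells have their main peak higher, at medians of 2.16% and 2.25%, with a smaller low peak.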

How the data were processed

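Single cells of 4 groups (KO and WT, tumor and CD45-sorted) were sequenced with 10x 3' V3 chemistry. Per the submitters' processing notes Cell Ranger 6.0.1, Seurat 4.0.5 and build mm10 were used, and the cell names are the authors' own. The authors deposited 1 matrix of natural log values, ln(1 + 10000 x UMI / total), and a cell table with whole UMI counts and gene counts per cell. Here the values were turned back into whole UMI counts: 0 of 60957742 nonzero values lay off a whole number by over 0.01, and all 20376 cells matched their deposited totals. The deposited table also holds other fields, which name each cell's group and type. Sample names within a group are not used here, since cells carry none.

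Counts were summed per class. Ratios used genes with at least 50 UMIs over both classes (20 for lists), with 0 counts set to a floor of 3 counts, also in list medians. Clustering used scanpy 1.11.5 and the Leiden method on the 3 KO tumor classes. The cell members and gene lists were chosen with earlier results of these data known. Named genes were the 15 highest and 15 lowest by the smaller of both log2 ratios with at least 50 CPM in 1 class, the 5 that differ most between comparisons each way, the 10 with most UMIs, all members of lists of 12 or fewer measured genes and otherwise the 4 farthest from 0, and Cd200 and Cd200r1; Hand2, Hlf, Loxl2 and the 16-fold set were chosen after their values were seen. Of 19715 genes 19393 were placed on GENCODE vM21 (GRCm38, the assembly of mm10). The ratio method was tested on simulated data.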

Additional observations from a re-analysis of the deposited data

Results flagged for a closer look

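Some ratios of the stem-named cells over neuroblastoma cells had opposite signs in the 2 tumor libraries, and the difference between the libraries was not tested, since each is 1 library and the WT tumor held 8 stem-named cells. The chromosome 1 median was 0.19 in KO and -0.20 in WT. The chromosome 5 median was -0.18 in KO and 0.18 in WT. The chromosome 14 median was 0.19 in KO and -0.39 in WT, and that of chromosome 15 was 0.38 in KO and -0.24 in WT. Ddah1 lay at 2.30 in KO and -0.69 in WT. The neuroblastoma cells compared differed between the libraries too, by -0.47 at the chromosome 14 median (KO over WT).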

How the results depend on the processing

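The counts of genes 2-fold apart, 3084 against fibroblasts and 1536 against neuroblastoma cells, moved by over 1.5 times as follows: to 1758 and 559 with cells thinned to 1000 UMIs, to 1826 against fibroblasts of like depth, to 842 against neuroblastoma cells with at least 200 UMIs per gene, to 2421 against WT neuroblastoma cells, and to 991 and 704 for the WT stem-named cells against WT classes. The KO tumor share of 3.70% was 4.68% outside leukocyte names and 4.41% among cells with at least 2000 UMIs. Thinned to 1000 UMIs, 76.1% of stem-named cells lay in 1 cluster, of which they were 25.5%. The X chromosome median kept its sign in all alternatives run.

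Among the named genes, list medians and the medians of chromosomes X, 5 and 15 that were followed through the alternatives, signs turned for 21 values. Without possible doublets Hbb-bs was at 0.062 against fibroblasts and 0.24 against neuroblastoma cells, and the medians of the B cell list (-2.23) and the monocyte list (0.19) against neuroblastoma cells turned. The doublet rule uses the erythroid, B cell and monocyte lists themselves, so these turns are not independent of it. Against WT classes the hypoxia list median was -0.28 (fibroblasts), Ddah1 -0.46 (fibroblasts) and -0.58 (neuroblastoma), and Chchd10 -1.46 and -1.61. Thinned to 10000 UMIs the B cell list median was -0.069 against neuroblastoma cells. For the WT stem-named cells over WT fibroblasts and WT neuroblastoma cells Igfbp5 was at -0.48 and -0.28, Lef1 at -0.19 and -0.29, Ddah1 at -0.66 and -0.69, chromosome 5 at 0.21 and 0.18, chromosome 15 at -0.18 and -0.24, and the hypoxia list at -0.37 against fibroblasts. The cause was not tested. Over all alternatives 945 values for named genes stayed within 2-fold of the main value and 78 moved further, 589 list medians stayed within 1.5-fold and 53 moved further, and 46 chromosome medians stayed within 0.2 on the log2 scale and 4 moved further.

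No paired analysis was possible because the deposited cells carry no sample name, although the labels give the groups the same sample letters. Thinning to 10000 UMIs, the members of the main cluster alone, the WT stem-named cells against WT classes, the joint clustering and all chromosome values were chosen after seeing the data. The main limits are 1 library per group, 8 WT cells, names taken from the authors, and depth: with 8111163 UMIs in the KO stem-named cells, 3 counts are 0.370 CPM, and levels under this rest on 1 or 2 UMIs.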
